A study of Mus musculus with 2 samples.

Results

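Head-to-head pairs are 2 protein-coding genes that are read away from each other from starts close together, so that a single stretch of DNA serves as promoter for both. A pair was taken wherever a minus-strand gene lay to the left of a plus-strand gene and their 5′-most annotated starts were 0 to 1000 bp apart on chromosomes 1 to 19 of the mouse mm10 (GRCm38) build. This gave 735 pairs with 1450 genes at 715 loci, from 20807 protein-coding genes of the GENCODE M21 annotation. The starts lay a median of 128 bp apart (quartiles 66 and 240 bp, longest 987 bp). Of 36215 replicated H3K4me3 peaks on these chromosomes, 1214 lay within 1000 bp of a pair.

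The peaks came from chromatin immunoprecipitation followed by sequencing in MEL cells, an immortalized mouse erythroleukaemia line arrested as a red cell precursor. The antibody recognised histone H3 trimethylated at lysine 4, and the 1 group holds 2 replicates with no second treatment, genotype or time. The labels name the same cell sample for both replicates, so their spread may be technical. The peak lists carry no read counts, so the depth behind a peak is unknown here.

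H3K4me3 is laid down around the starts of active genes and of many genes with CpG-rich promoters, mainly on the nucleosomes just downstream of the start, while the start itself is often kept free of nucleosomes. Head-to-head promoters are a common arrangement in mammals, usually CpG-rich, and are known for housekeeping genes and for genes of DNA repair. Both genes of such a pair are transcribed from their own initiation sites in opposite directions, each followed by its own modified nucleosomes.

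The cells carried the marks of their labelled type. All 5 erythroid marker genes on these chromosomes (Klf1, Tal1, Nfe2, Gfi1b and Epor) had a replicated peak at the start. Of 26 genes that mark other cell types, 1 had one, the muscle creatine kinase gene Ckm, which is itself in a head-to-head pair with Klc3. Over all protein-coding genes on these chromosomes, 48% of the 5′-most starts had a replicated peak within 1000 bp.

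The DNA between the starts is shown here for 4 pairs that the results turn on: 3 marked pairs with different letters between their starts, and the unmarked collagen pair. The letters are the plus strand of the RefSeq GRCm38 genome from the base after the minus-strand gene's start to the base before the plus-strand gene's start. Capitals mark CCAAT (or ATTGG on the other strand), the box bound by NF-Y, and GGGCGG (or CCGCCC), the GC box bound by SP and KLF factors. The intervals are chr4:116807641-116807722 for Toe1/Mutyh, chr7:28741821-28741991 for Mrps12/Sars2, chr11:53430832-53431022 for Uqcrq/Gdf9 and chr1:82586850-82586920 for Col4a4/Col4a3.
Toe1/Mutyh: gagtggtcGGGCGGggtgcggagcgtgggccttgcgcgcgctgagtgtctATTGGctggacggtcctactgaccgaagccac
Mrps12/Sars2: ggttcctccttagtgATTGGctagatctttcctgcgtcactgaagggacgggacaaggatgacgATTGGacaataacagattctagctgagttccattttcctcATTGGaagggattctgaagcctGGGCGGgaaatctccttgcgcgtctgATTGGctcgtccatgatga
Uqcrq/Gdf9: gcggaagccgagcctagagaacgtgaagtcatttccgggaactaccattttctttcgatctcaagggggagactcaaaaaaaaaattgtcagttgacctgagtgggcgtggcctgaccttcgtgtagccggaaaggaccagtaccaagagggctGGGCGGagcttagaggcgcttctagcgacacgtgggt
Col4a4/Col4a3: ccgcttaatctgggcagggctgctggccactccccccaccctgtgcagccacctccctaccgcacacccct

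Mrps12/Sars2 held 4 CCAAT boxes and 1 GC box in 171 bases, and Toe1/Mutyh 1 of each in 82 bases. Uqcrq/Gdf9 held 1 GC box in 191 bases with 12 CpG dinucleotides. Col4a4/Col4a3 held neither box and 2 CpG dinucleotides in 71 bases. A match is a run of letters and does not show that a factor was bound.

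In MEL cells 677 of the 735 pairs were marked, meaning that a replicated peak lay within 1000 bp of a start. That is 92.1%, with an exact 95% binomial interval of 89.9 to 94.0% that covers counting error only. The background was 48% of all protein-coding 5′-most starts, 41.7% of single promoters and 73.8% of single promoters of high CpG content. Single promoters are starts outside the pairs with no start of another protein-coding gene within 2000 bp on either strand. The replicate 1 list marked 677 pairs and the replicate 2 list 676 (92.0% ± 0.0962, SD, n = 2), and 676 were marked in both. None of the 58 unmarked pairs had a peak in either replicate list. Regions of 1 genome are not independent replicates, so the differences between pairs and single promoters are descriptions and were not tested.

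Both starts of a pair were marked or neither was: no pair was marked at 1 start alone. The window helps to fix this, since it reaches past the partner's start in every pair. With a window of 500 bp, 11 pairs were marked at 1 start.

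CpG content went with marking, but pairs were marked more often within each CpG class. High-CpG promoters (observed over expected CpG of at least 0.6 and GC of at least 50%) made up 84.1% of pairs and 41.2% of single promoters. Of the 618 high-CpG pairs, 596 were marked (96.4%, interval 94.7 to 97.8%). Among pairs of intermediate CpG content 72 of 87 were marked (82.8%), against 45.9% of such single promoters. Among low-CpG pairs 9 of 30 were marked (30%, interval 14.7 to 49.4%), against 9.85% of such single promoters. The share that was marked thus fell from high to low CpG content in pairs as in single promoters.

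Marking was frequent at every distance up to 500 bp. It was 95.4% for starts up to 100 bp apart, 90% for those up to 200 bp, 92.7% up to 300 bp, 93.8% up to 500 bp and 80.9% (interval 69.5 to 89.4%) up to 1000 bp, each class starting where the one before it ends. Just outside the rule, 104 pairs with starts more than 1000 and up to 2000 bp apart were marked in 73.1%. Another 445 pairs whose first parts overlap, with the plus-strand start on the left, were marked in 88.3%. Protein-coding genes that share a head-to-head promoter with a noncoding RNA gene were marked in 70.6% of 721 cases, and in 80.8% of the 547 with high CpG content.

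The peaks at pairs had the height of those at single promoters but made broader domains. The strongest peak at a marked pair had a median width of 1434 bp, against 1430 bp at high-CpG single promoters, and a median signal value of 14.4 against 14.2. The signal value is the authors' enrichment score for a peak, and how it was computed is not stated in the labels. Peaks at most 1000 bp apart were joined into domains, and the domain at a pair had a median width of 2655 bp (quartiles 2149 and 3321). At high-CpG single promoters it was 2281 bp (quartiles 1750.5 and 3034). In replicate 1 the medians were 2885 and 2440 bp, and in replicate 2 they were 2634 and 2253 bp, so the order held in each list. High-CpG pairs alone had a median domain of 2713 bp in the replicated list. The window of a pair was longer than that of a single promoter by the distance between the starts, which its domain could also span. The part of this in the difference was not tested.

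Domains at pairs reached into both genes. They reached a median of 1211 bp into the minus-strand gene and 1225 bp into the plus-strand gene. At high-CpG single promoters the domain reached 1415 bp downstream of the start and 776 bp upstream of it. Which gene of a pair is on the minus strand is arbitrary, so the medians by strand do not show how even a single domain is. Within a pair the longer arm had a median of 1488 bp and the shorter 996 bp, and at high-CpG single promoters the medians were 1490 and 754 bp. The longer arm was at least 2 times the shorter at 195 of 677 pairs (28.8%, interval 25.4 to 32.4%) and at 50.4% of high-CpG single promoters, domains that stopped short of a start included. In replicate 1 these shares were 30.4 and 52.2%, and in replicate 2 they were 30.2 and 50.9%. Promoters shared with a noncoding gene, which are a part of the single promoters, had a median domain of 2491 bp over all CpG classes. At high CpG content it was 2517 bp, beside 2713 bp at pairs. Single promoters of that class with no opposite start of any gene type had 2220 bp.

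Coverage by peaks around each start showed where the difference lay. Just upstream of the start the lines of pairs and of high-CpG single promoters ran together, falling to 42.1% of marked pair starts and 44.1% of single starts at 50 bp upstream. At 1000 bp upstream, inside the partner gene, 80.1% of pair starts were still covered, against 30.4% of single starts. At 1500 bp downstream the order was the other way, with 28.3% of pair starts and 43.2% of single starts covered. In replicate 1 the dip was deeper (23.6% and 24.6% at 25 bp upstream) and in replicate 2 shallower (52.2% and 54.2% at 50 bp upstream), in both groups alike.

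**Figure D1:**
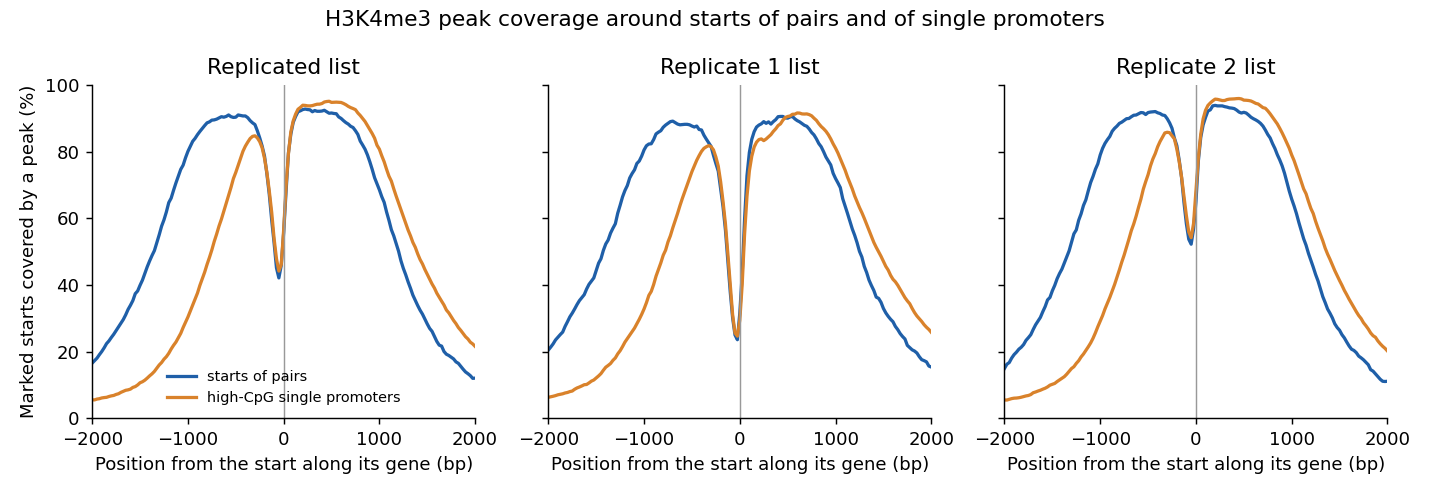
Share of marked starts covered by a peak (y axis, %) at each position along the gene from the start (x axis, bp), for starts of pairs (blue) and high-CpG single promoters (orange), in 3 panels for the replicated list and the single replicates. The lines meet in a dip just upstream of the start and part further upstream, where 80.1% of pair starts and 30.4% of single starts were covered at 1000 bp in the replicated list.

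At 375 of the 677 marked pairs (55.4%, interval 51.6 to 59.2%) separate peaks flanked the midpoint between the starts and no peak covered it. At 278 pairs (41.1%) the midpoint lay inside a peak, and at 24 the peaks lay on 1 side, 12 on the left and 12 on the right. Replicate 1 had flanking peaks at 71.3% of its marked pairs and replicate 2 at 45.9%, so the layout differed between the lists. The same point of a single promoter was also often flanked. At 64 bp upstream of the start, the typical place of a pair's midpoint, peaks flanked 48.2% of marked high-CpG single promoters, with 64.8% and 40.3% in the replicates.

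The gap between flanking peaks had a median of 179 bp (quartiles 123 and 255 bp) at pairs, and 176 bp at the upstream point of high-CpG single promoters. Over the 375 flanked pairs the gap and the distance between the starts had a Spearman's rho of 0.48 and a Pearson's r of 0.41, as a description over pairs of 1 peak list. The gap was at least as long as the distance at 264 of them (70.4%).

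The layout changed with the distance between the starts. Flanking peaks were found at 50.5% of marked pairs up to 100 bp apart, 77.2% in the class up to 200 bp and 67.4% in that up to 300 bp. The share was 36.7% in the class up to 500 bp and 10.9% in that up to 1000 bp, where 78.2% had the midpoint inside a peak. In replicate 1 the closest pairs were flanked in 79.9% and in replicate 2 in 37.9%, the largest spread of any distance class. Above 100 bp the order of the classes was the same in both replicates.

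**Figure D2:**
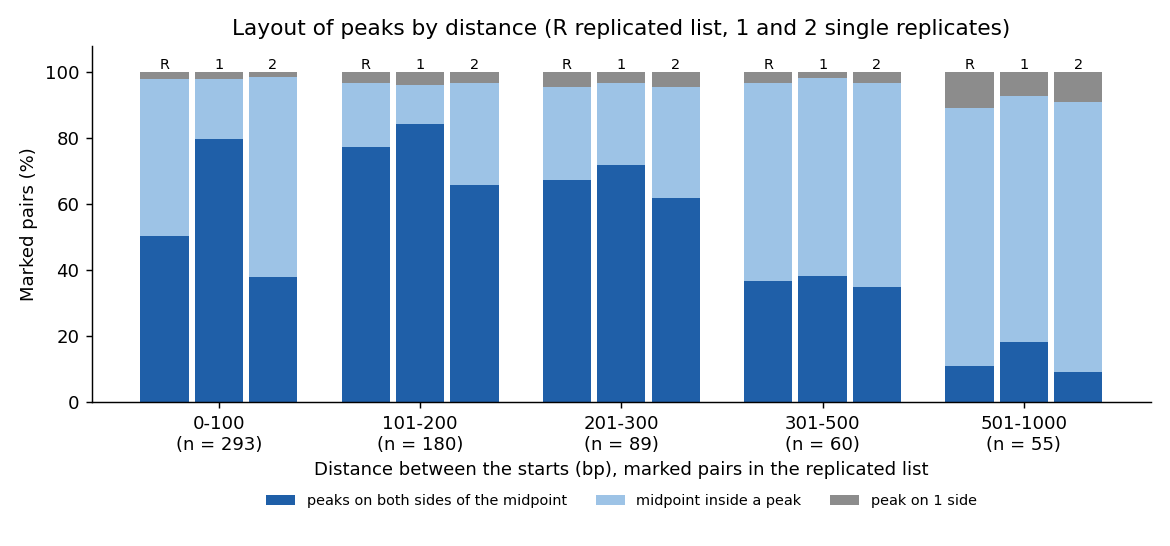
Share of marked pairs (y axis, %) with peaks on both sides of the midpoint (dark blue), the midpoint inside a peak (light blue) or a peak on 1 side (grey), by the distance between the starts (x axis, bp), with 1 bar each for the replicated list (R) and replicates 1 and 2. Dark blue falls to 10.9% in the most distant class of the replicated list, and the replicates differ most in the closest, with 79.9% and 37.9%.

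The summit of the strongest peak, its highest point, was seldom between the starts. It lay over the plus-strand gene at 340 marked pairs, over the minus-strand gene at 316 and between the starts at 21 (3.10%, interval 1.93 to 4.70%). The share between was 2.51% in replicate 1 and 3.55% in replicate 2. Summits were also seldom within such a distance upstream of a single start, at 4.94% of marked high-CpG single promoters (4.55% in replicate 1 and 4.52% in replicate 2), so a low share was not particular to pairs. Summits between the starts were found mainly where these lay far apart. None of 293 marked pairs up to 100 bp apart had one, and 1 of 180 in the class up to 200 bp. There were 3 of 89 in the class up to 300 bp, 8 of 60 (13.3%) in that up to 500 bp and 9 of 55 (16.4%) in that up to 1000 bp.

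A summit outside the starts lay a median of 223.5 bp inside the gene on its side (quartiles 149 and 475.25 bp). For high-CpG single promoters with a downstream summit the median was 364 bp. In replicate 1 the medians were 514 bp at pairs and 621 bp at single promoters, and in replicate 2 they were 183.5 and 270 bp. Pairs had the shorter offset in each list, but the replicates differed by more than the groups. By annotation the summit was in an intron at 296 pairs (43.7%), in a UTR at 186, in a coding exon at 116, in another exon at 52 and in neither gene at 27.

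**Figure D3:**
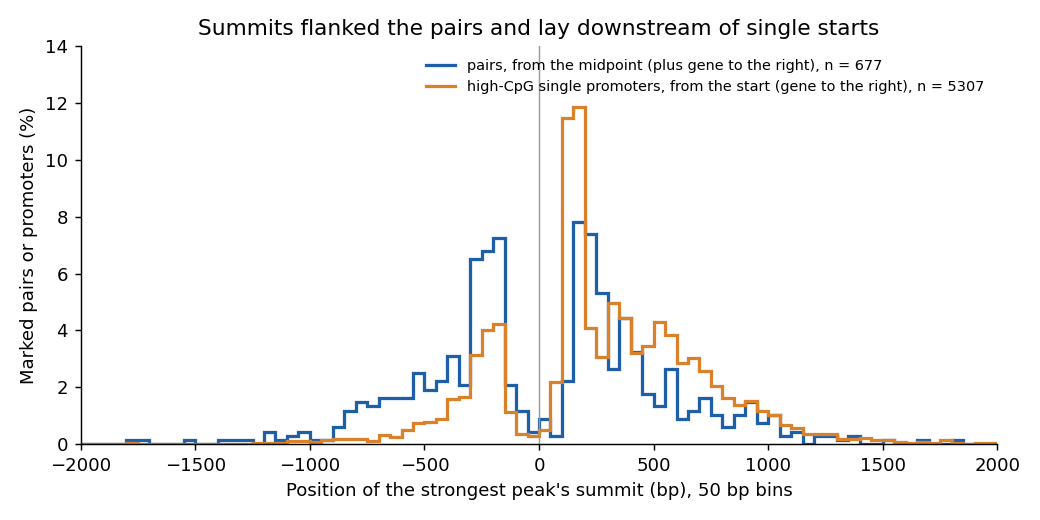
Share of marked pairs (blue) and marked high-CpG single promoters (orange) in % (y axis) by the position of the strongest peak's summit in 50 bp bins (x axis, bp), from the midpoint of a pair or from a single start, with the plus-strand gene or the gene to the right. Pairs have a peak on each side, with 316 summits over the minus-strand gene and 340 over the plus-strand gene, and few summits between.

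The gene that carried the higher summit was often not the same in both replicates. The strongest summit was on the same side at 439 of 676 pairs (64.9%), and the 2 summits were within 100 bp of each other at 183 (27.1%). Each side of a flanked midpoint was given the highest signal value of its peaks, here and at the pairs named below. The 2 sides were close in height. The stronger had a median of 1.29 times the signal value of the weaker, and at least 2 times at 38 of 375 pairs. Where replicate 1 had a ratio of at least 2, replicate 2 had the same stronger side at 45 of 54 pairs (83.3%), against 191 of all 306 pairs flanked in both (62.4%). A side called from 1 list was thus repeated more often at pairs with unequal peaks, though not at all of them.

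The side with the summit held more CpG dinucleotides in the first 500 bases of its gene at 361 of 641 pairs (56.3%, interval 52.4 to 60.2%). The share was 58.4% in replicate 1 and 54.8% in replicate 2.

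Summits between the starts were most firmly placed at 10 of the 21 pairs, where all 3 lists put them there. These pairs, chosen after their values were seen, had starts 244 to 743 bp apart. Sirt6/Ankrd24, with the gene of a nuclear deacetylase on the minus strand, had starts 743 bp apart and signal values of 10.2, 7.21 and 11.7 in the replicated, replicate 1 and replicate 2 lists. Fig4/Ak9, the gene of a phosphoinositide phosphatase beside that of an adenylate kinase, had starts 720 bp apart and signal values of 9.83, 12.4 and 10.3. At both pairs the midpoint lay inside a peak of the replicated list.

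The 300 bases around each midpoint were searched for 7 motifs. CCGGAAG, the core bound by GABPA and other ETS factors, was found at 208 pairs (28.3%), and in 30.3% of high-CpG pairs. It was in 11.7% of all protein-coding starts and 17.7% of high-CpG single promoters, with both strands searched in windows of the same length. The windows of all starts and of single promoters were centred on the start itself, whereas a pair's midpoint lies upstream of its starts. The part of this in the differences was not tested. CCAAT was in 44.5% of pairs and 45.3% of high-CpG pairs, against 36.2% of all starts and 33.4% of high-CpG single promoters. The GC box GGGCGG was in 73.1% of high-CpG pairs and 77.4% of high-CpG single promoters, and TATAAA in 3.72% and 3.81%. NRF1's GCATGCGC was in 7.61% and 5.62%, YY1's ATGGCGGC in 7.44% and 7.09%, and AGATAA, read by GATA factors, in 4.21% and 2.59%. Since nearly all pairs were marked, marked promoters of high CpG content are the closer match. There CCGGAAG was in 31.2% of pairs and 22.2% of single promoters, CCAAT in 45.1% and 35.5%, and AGATAA in 4.19% and 2.39%. GCATGCGC was in 7.89% and 6.65%, and ATGGCGGC was lower at pairs, with 7.72% and 9.10%.

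The ETS letters were rarer in unmarked pairs, and CCAAT was not. CCGGAAG was in 206 of 677 marked pairs (30.4%) and in 2 of 58 unmarked ones (3.45%, interval 0.42 to 11.9%). CCAAT was in 44.3% of marked and 46.6% of unmarked pairs. The unmarked pairs also had a lower CpG ratio (median 0.531 against 0.784), and its part in the difference was not tested.

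Genes of DNA replication and repair were often in pairs. Of 81 such genes 23 (28.4%) were in a head-to-head pair, against 6.97% of all protein-coding genes, and the 23 pairs had a median domain of 2878 bp, against 2655 bp at all marked pairs. All 23 were marked and 16 had flanking peaks, beside 92.1% and 55.4% over all pairs and all marked pairs. Paired or not, 78 of the 81 genes were marked, beside 48% of all protein-coding starts. Mcm4/Prkdc, a helicase subunit gene of DNA replication beside that of the DNA-dependent protein kinase, had starts at 15637400 and 15637866 on chromosome 16. Its flanking peaks had signal values of 11.4 on the Mcm4 side and 7.30 on the Prkdc side, 11.3 and 12.2 in replicate 1, and 6.18 and 8.31 in replicate 2. The stronger side thus differed between the replicated list and both replicates.

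Atm/Npat, with starts at 53536740 and 53537047 on chromosome 9, joins the gene of a DNA damage kinase with that of a coactivator of histone genes. Its flanking peaks had signal values of 11.6 over Atm and 12.4 over Npat, with 12.6 and 11.8 in replicate 1 and 12.2 and 15.02 in replicate 2. The gap of 377 bp (447 and 344 bp in the replicates) was longer than the 307 bp between the starts in every list.

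Brca1/Nbr1, a recombination gene beside the gene of an autophagy receptor (starts at 101551955 and 101552149 on chromosome 11), was unequal in every list by the highest peak of each side. That of the Nbr1 side had a signal value of 17.3 and that of the Brca1 side 6.65. The values were 14.5 and 6.69 in replicate 1 and 18.6 and 5.71 in replicate 2. In the replicated list the peak next to the gap on the Nbr1 side had 7.52, and the peak of 17.3 was a separate one further inside Nbr1. In replicate 2 the Nbr1 side had a single peak of 2120 bp. The strongest summit lay 829 bp past the Nbr1 start in an intron.

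Toe1/Mutyh leaned the other way, with signal values of 12.4 over Toe1, the gene of an RNA deadenylase, and 9.66 over Mutyh, the gene of a base excision repair glycosylase. The values were 11.5 and 8.46 in replicate 1 and 15.3 and 10.2 in replicate 2, so the Toe1 side was higher in every list. The gap of 165 bp (232 and 144 bp in the replicates) was longer than the 83 bp between the starts in every list.

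Rad51c/Tex14, with starts at 87404954 and 87405065 on chromosome 11, had peaks over 1 gene alone. Rad51c serves homologous recombination in all dividing cells and Tex14 forms bridges between germ cells. Both peaks lay on the Rad51c side, with the highest signal value 9.15 (9.26 and 7.60 in the replicates), and the domain of 1126 bp stopped short of the Tex14 start, as in both replicates. Wrn/Purg, with the Werner helicase gene, had the widest domain of the repair pairs (5140 bp).

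Wrap53/Trp53 (starts at 69580255 and 69580359 on chromosome 11), where the p53 gene meets the gene of a telomerase-associated protein, had a single broad peak over both starts in the replicated list and in replicate 2. In replicate 1 it was divided by a gap of 99 bp. The signal values of the strongest peak were 10.8, 10.2 and 11.2 in the replicated, replicate 1 and replicate 2 lists, and its summit was on the Trp53 side in all 3, 957 bp past the start in the replicated list. The domain measured 4859 bp (5054 and 4760 bp in the replicates).

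**Figure D4:**
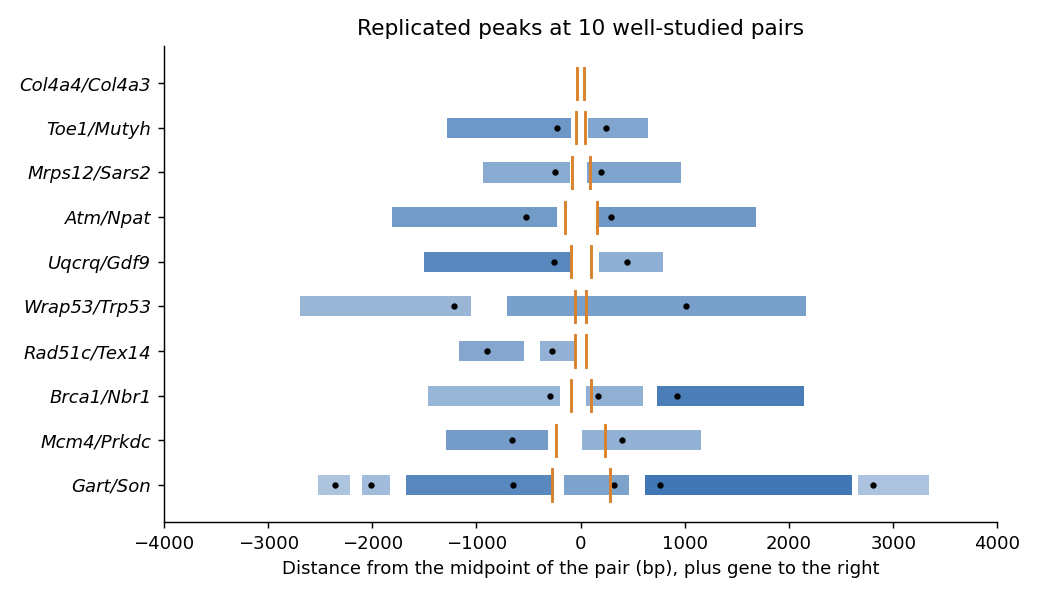
Replicated peaks (blue bars, darker for a higher signal value) with their summits (black dots) at 10 well-studied pairs by distance from the midpoint (x axis, bp), minus-strand gene to the left and plus-strand gene to the right, with both starts as orange lines. Col4a4/Col4a3 has no peak, Rad51c/Tex14 has peaks on the left alone, and Wrap53/Trp53 has a peak over both starts.

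Mitochondrial genes were also often in pairs. Of 78 mitochondrial ribosomal protein genes 18 were in pairs (23.1%), and of 91 genes of oxidative phosphorylation 22 (24.2%). The share of all protein-coding genes was 6.97%. Their 18 and 22 pairs were all marked, where 92.1% of all pairs were. Whether paired or not, 76 of the 78 and 83 of the 91 genes were marked, beside 48% of all protein-coding starts. The median domains of 2511 and 2611.5 bp were slightly below the 2655 bp of all marked pairs. Mrps12/Sars2 pairs a mitochondrial ribosomal protein gene with the gene that charges mitochondrial serine tRNA. Its flanking peaks had signal values of 8.61 and 9.92, with 7.60 and 9.09 in replicate 1 and 9.06 and 10.9 in replicate 2, the Sars2 side higher each time. The gap of 170 bp (181 and 159 bp in the replicates) was close in length to the 172 bp between the starts. They did not coincide in the replicated list, where the Sars2 peak began at 28741970, before the Sars2 start at 28741992. The last of the 4 CCAAT boxes between the starts lay inside that peak.

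Uqcrq/Gdf9 joins a gene of respiratory complex III with an oocyte growth factor gene. The Uqcrq side had a signal value of 15.3 and the Gdf9 side 7.84, with 17.4 and 8.23 in replicate 1 and 17.3 and 7.55 in replicate 2. The gene with a role in one cell type thus had a peak as well, lower by about the same amount in both replicates. Uqcrh/Lrrc41 had the widest domain of the respiratory pairs (4920 bp) with a signal value of 22.0, and Mrps18b/Ppp1r10 the widest of the ribosomal ones (5118 bp).

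Smaller shares of 4 other housekeeping groups were in pairs, each above the 6.97% of all protein-coding genes. In pairs were 7 of 34 chaperone genes (20.6%), 9 of 80 cytosolic ribosomal protein genes (11.3%), 5 of 38 aminoacyl-tRNA synthetase genes (13.2%) and 5 of 38 proteasome genes (13.2%). All of these few pairs were marked, beside 92.1% of all pairs. Dnajc2/Psmc2, a ribosome-bound cochaperone gene beside a proteasome ATPase gene, had starts 32 bp apart and a domain of 5482 bp. Gart/Son, a purine synthesis gene beside that of a splicing cofactor, had starts 554 bp apart and a domain of 5863 bp. A further peak lay between and over the Son start there, so the midpoint was covered although peaks stood on both sides.

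The pairs named next were taken as the widest of their groups, so their width is a description. Hsp90b1/Ttc41, with the chaperone of the endoplasmic reticulum, had a domain of 4323 bp (7953 and 4069 bp in the replicates). Zwilch/Rpl4, a kinetochore gene beside a ribosomal protein gene, had 4833 bp (5039 and 4624 bp), and Psmb1/Tbp, a proteasome subunit gene beside that of the TATA-binding protein, 4554 bp (4459 and 4663 bp). Of these the Hsp90b1/Ttc41 domain differed most between the replicates. Atp5c1/Kin, with an ATP synthase subunit gene, had a signal value of 22.0 (17.6 and 18.7 in the replicates) and its summit over Atp5c1 in each list. Psme2/Rnf31, with a proteasome activator gene of antigen processing, had starts 595 bp apart and a signal value of 18.0 (13.4 and 19.2 in the replicates), its midpoint inside a peak.

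Klc3/Ckm, the pair with a marker of another cell type, had a low signal value and a narrow domain. Its signal value was 6.38 (3.36 and 8.38 in the replicates), and the domain of 1033 bp was 181 bp in replicate 1. The summit lay in an intron of the kinesin light chain gene Klc3 in the replicated list, over Klc3 in replicate 2 and between the starts in replicate 1, and over Ckm in none of these.

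Zinc finger genes with Zfp symbols were in pairs at 5.19% (20 of 385), close to the 6.97% of all genes. Of their 18 pairs 17 were marked, beside 92.1% of all pairs. The unmarked one, Zfp558/Mbd3l1, had low CpG content. The haem synthesis gene Urod was the 1 erythroid gene of 40 in a pair (2.5%, against 6.97% of all genes). At Urod/Hectd3, with starts 904 bp apart, the signal value was 9.04 (6.85 and 14.8 in the replicates) and the midpoint lay inside a peak.

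Histone pairs had low signal values and wide gaps. Of 67 replication-dependent histone genes 27 (40.3%) were in 14 pairs, where 6.97% of all protein-coding genes were in pairs. Of these pairs 13 joined 2 histone genes, 12 of them an H2A with an H2B gene. Of those 13, 10 were marked, beside 92.1% of all pairs. The 10 had a median signal value of 3.55 (range 2.42 to 8.29) against 14.5 at the other marked pairs. At 6 of the 10 peaks flanked the midpoint, beside 55.4% of all marked pairs, and the gap was 608 to 1335 bp (median 1124.5 bp). All 6 gaps were over 500 bp, as were 9 of 369 at the other pairs.

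Replication-dependent histone genes occur in near-identical copies, which bears on what a peak list can show. In the marked histone pairs, 28.7 to 62.1% of the 32-base words around the more repeated start occurred elsewhere in the genome as well. At Hist1h2bq/Hist1h2ao and Hist1h2ap/Hist1h2br, both unmarked, the share was 100% at both starts. Among all pairs 48 had at least 10% repeated words at a start, as did 10 of the 58 unmarked pairs. The part of repeated sequence in the low values and the wide gaps was not tested.

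The letters between the starts of these 2 unmarked pairs (chr13:21810198-21810464 and chr13:21833508-21833742) are shown beside those of a marked histone pair (chr3:96220881-96221118), with CCAAT or ATTGG and TATAAA (or TTTATA) in capitals.
Hist1h2bq/Hist1h2ao: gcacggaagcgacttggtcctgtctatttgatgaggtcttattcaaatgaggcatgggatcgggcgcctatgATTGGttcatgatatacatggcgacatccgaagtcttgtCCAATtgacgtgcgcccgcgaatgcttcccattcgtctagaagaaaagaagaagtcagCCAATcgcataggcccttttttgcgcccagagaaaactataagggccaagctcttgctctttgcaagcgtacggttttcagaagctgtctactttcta
Hist1h2ap/Hist1h2br: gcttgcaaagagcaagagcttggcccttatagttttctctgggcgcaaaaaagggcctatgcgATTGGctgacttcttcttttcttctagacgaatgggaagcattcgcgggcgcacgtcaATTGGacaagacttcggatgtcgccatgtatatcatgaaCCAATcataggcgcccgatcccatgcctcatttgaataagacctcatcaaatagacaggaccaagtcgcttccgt
Hist2h2ac/Hist2h2be: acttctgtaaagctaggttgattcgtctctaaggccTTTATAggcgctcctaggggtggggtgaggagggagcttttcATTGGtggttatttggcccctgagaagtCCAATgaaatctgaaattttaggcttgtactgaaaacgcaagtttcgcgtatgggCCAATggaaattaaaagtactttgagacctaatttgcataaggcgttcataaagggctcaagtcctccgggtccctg

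The 235 bases of Hist1h2ap/Hist1h2br, read from the other strand, occur within the 267 bases of Hist1h2bq/Hist1h2ao with 0 mismatches, so short reads from one cannot be told apart from reads of the other there. Each holds 3 CCAAT boxes, as does Hist2h2ac/Hist2h2be, which also has a TATAAA. At Hist2h2ac/Hist2h2be the signal values were 5.08 on the Hist2h2ac side and 8.29 on the Hist2h2be side, with 5.22 and 8.57 in replicate 1 and 4.44 and 9.11 in replicate 2. Its gap of 608 bp was longer than the 239 bp between the starts. In the replicated list the peak of 5.08 was also the highest on the Hist2h2ab side of the neighbouring pair Bola1/Hist2h2ab. Both pairs lay in the same domain of 4393 bp. The third unmarked histone pair, Hist1h2ba/Hist1h2aa, had 17.6% and 4.95% repeated words.

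**Figure D5:**
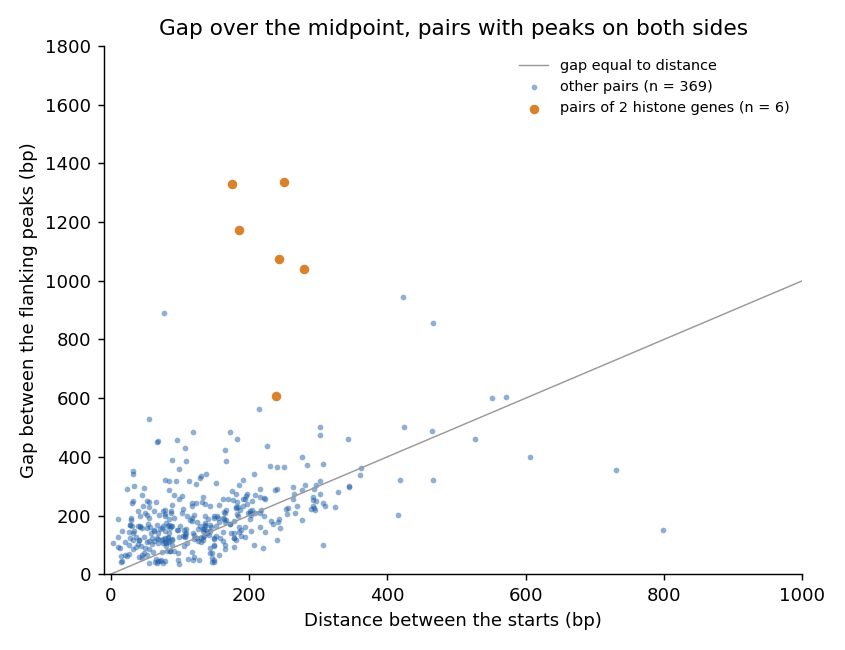
Gap between the flanking peaks (y axis, bp) against the distance between the starts (x axis, bp) at the 375 flanked pairs, with pairs of 2 histone genes in orange and the other 369 pairs in blue, and a line where the gap equals the distance. The 6 histone pairs lie at gaps of 608 to 1335 bp, above nearly all others.

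Pairs without a peak held 22 of high, 15 of intermediate and 21 of low CpG content. Col4a4/Col4a3, which encode basement membrane collagen chains of the kidney filter, had no peak in the replicated list or in either replicate, with the 72 bp between starts shown above. Bend6/Dst, with a CpG ratio of 1.01, had the highest of the unmarked pairs, and Acvr1/Upp2 (0.895) and Zfyve28/Cfap99 (0.869) followed the 2 repeated histone pairs. Dst encodes a cytoskeletal linker, Acvr1 a receptor for bone morphogenetic proteins and Upp2 a uridine phosphorylase. Their starts held under 10% repeated words. Obsl1/Inha, Mdh1b/Fastkd2 and 4931428L18Rik/Pih1d3 were the others met first along chromosome 1.

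Other unmarked pairs, picked after their values were seen, are given as examples and do not describe the 58 as a whole. Kirrel2/Nphs1 encodes proteins of the kidney's slit diaphragm, Duox2/Duoxa2 a thyroid oxidase and its maturation factor, and Smc1b/Ribc2 includes the meiotic cohesin subunit. Sgce/Peg10 and Peg3/Usp29 are imprinted, transcribed from 1 parental copy. Hspa1a/Hspa1l, with the inducible heat shock gene, had 58.9% repeated words around the Hspa1a start.

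Low-CpG pairs that were marked tended to be marked over 1 gene. Peaks lay on 1 side at 6 of these 9 pairs (66.7%, interval 29.9 to 92.5%), at 4 of 72 of intermediate CpG content (5.56%) and at 14 of 596 of high CpG content (2.35%). Rnf151/Rps2 had its summit 911 bp inside Rps2, a ribosomal protein gene, with signal values of 4.87, 5.81 and 9.23 in the replicated, replicate 1 and replicate 2 lists. Pinlyp/Xrcc1 had its peaks inside the DNA repair gene Xrcc1, with 14.8, 11.1 and 16.6. In both cases every list placed the peaks over the same gene. These 2 pairs were picked after their values were seen, and the class holds 9 pairs only.

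The widest domains joined the promoter to further peaks. They were 9109 bp at Zfp91/Lpxn, 9062 bp at Plag1/Chchd7, 8218 bp at Klhl28/Togaram1, 7580 bp at Nt5c3/Vmn1r4 and 7304 bp at Pafah1b2/Sik3. The domain at the zinc finger gene Plag1 was 11731 bp in replicate 1 and 5476 bp in replicate 2. Nt5c3 encodes a nucleotidase needed by red cells, and its partner Vmn1r4 a pheromone receptor, with domains of 7876 and 7561 bp in the replicates.

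The highest signal values were at Drap1/AI837181 (35.3), Ostf1/Nmrk1 (30.2, above that of 99.9% of all replicated peaks), Pcmt1/Lats1 (29.7) and Hook3, paired with both Rnf170 and Gm45692 (28.2). Drap1 encodes a repressor of transcription initiation and Lats1 a kinase of the Hippo pathway. In replicate 1 Drap1/AI837181 had 18.8 and in replicate 2 47.1, so the rank rests mainly on replicate 2. Hook3 had 13.4 in replicate 1 and 36.6 in replicate 2, with the same dependence.

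At the ends of the distance range the layout differed. The shortest marked pairs were Nsa2/Gfm2 (starts at the same base), Bag4/Lsm1 and Slc7a6os/Prmt7 (1 bp apart), and each had 1 peak over both starts in the replicated list. Nsa2/Gfm2 and Slc7a6os/Prmt7 were divided by gaps of 123 and 156 bp in replicate 1. The longest were Btf3l4/Txndc12 (987 bp) and Zfyve26/Rad51b (978 bp). Zfyve26/Rad51b had its summit between the starts in the replicated list and in replicate 2, and over Rad51b in replicate 1.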

How the data were processed

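H3K4me3 ChIP-seq of the MEL line was analysed in 2 replicates of 1 group, from 4 deposited peak lists on mm10: 1 per replicate, 1 pooled, and the replicated list derived from these, per the labels' notes on the files. For each peak the authors deposited a signal value (an enrichment score), a −log10 q-value and a summit. The aligner, caller and settings were not given in the sources used here; read depth is unknown, and an older mm9 list was not used.

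Starts came from GENCODE M21 and sequence from the RefSeq GRCm38 genome. The CpG class was read from 500 bases on either side of the midpoint or start: high had an observed over expected ratio of at least 0.6 and GC of at least 50%, low a ratio under 0.4. Single promoters were outside the pairs and had no start of another protein-coding gene within 2000 bp on either strand. A pair or start was marked by a peak within 1000 bp, and peaks up to 1000 bp apart formed a domain. Repeated words are 32-base words found elsewhere in the genome. Shares have exact (Clopper-Pearson) 95% intervals, which cover counting only. The other peak settings, windows and lists tried are given in the closing section.

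The members, gene lists and comparisons were chosen with earlier results of these data known. Pairs named are the well-studied pairs that met the rule (10 of 18 listed), the 5 of widest domain, the 5 of highest signal value, the 5 unmarked of highest CpG ratio and the 5 first by position, the 3 shortest and longest, and per gene list the 2 marked of widest domain and the first 2 unmarked. Pairs named outside this rule are said to be so. A few pairs that the rule names are not reported here. The code was tested on simulated data. Peaks and sequences were read with pandas 2.3.3, pysam 0.24.0 and numba 0.67.0 under Python 3.11.15. Intervals came from scipy 1.17.1, medians from numpy 2.4.6 and figures from matplotlib 3.10.9.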

Additional observations from a re-analysis of the deposited data

How the results depend on the processing

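Of 92 alternative values, 81 kept within the interval or the replicate spread of the reported one, and 11 moved. A reversal could be called only for the difference in domain width, and 0 were. The spread for medians was the SD of the 2 replicates, which was wide: 211 bp for peak width and 215 bp for summit offset. The single-replicate lists were judged by the spread that they set. The shares of pairs with both starts marked or with no start marked and the median peak width stayed within their interval or spread under every window, list and subset run. So did the median summit offset of 319 bp, except in the replicate 1 list alone (570 bp; 266.5 bp in that of replicate 2). Domain width was 2634 to 2885 bp in the single replicates and 1564 bp without joining peaks (gap of 0 bp), against 2655 bp. The share of marked pairs with 2 or more peaks, 72.8%, was 64.2 to 90.7% in the single replicates and 76.9% with a 2500 bp window. The share of summits between the starts, 3.10%, was 1.93% for pairs up to 500 bp apart. The share of marked single promoters, 41.7%, was 39.1% without an opposite start of any gene type and 73.8% at high CpG content, the latter chosen after seeing the data, as were the window around the midpoint and 1 pair per locus. Pairs exceeded single promoters in domain width by 538 bp, by 432 bp within high CpG content, and by 534 to 620 bp in the single replicates. The causes were not tested. No paired analysis was possible because the series has 1 group.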
